A study of Mus musculus with 2 samples.

Results

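The cells described here are the macrophages of the mouse aortic arch with few or no marker transcripts of resident or of lipid-loaded foam macrophages. They were 206 of 836 cells with a macrophage level of C1q transcripts, and 206 of 8155 cells that passed the quality filter. All animals were male C57BL/6 mice of 16 weeks that lacked Apoe in both diet groups. The control (ND) group was fed chow, and the HFD group was fed a high-fat, high-cholesterol diet with sodium cholate from weaning. For each diet the arches of 2 pooled aortas were digested with enzymes at 37°C and run as 1 droplet single-cell RNA library, so there were no replicates, every difference between the diets is a difference between 2 libraries, and no p-value is given.

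The members were chosen on their own transcript counts. A barcode was kept if it had at least 200 genes, at least 200 unique molecular identifiers (UMIs, each counting 1 captured RNA molecule) and at most 30% mitochondrial UMIs. It was C1q-gated if C1qa, C1qb and C1qc together made up at least 0.2% of its UMIs and it did not hold both Pecam1 and Cdh5, which mark endothelial cells. It was a member if the summed UMIs of the resident genes Folr2, Lyve1, Cd163, Fcna and Cd209f were at most 2 and the summed UMIs of the foam genes Gpnmb, Trem2, Mmp12, Atp6v0d2 and Syngr1 were also at most 2. This gave 97 members in ND and 109 in HFD, beside 215 and 172 resident-gated cells, 44 and 155 foam-gated cells, and 8 and 36 cells over both limits. Members were 26.6% of C1q-gated cells in ND (exact Clopper-Pearson 95% interval 22.2 to 31.5) and 23.1% in HFD (19.4 to 27.2). These shares follow from the limits of the rule and are given as a description.

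C1q starts the classical complement pathway and is made in the vessel wall mainly by macrophages. Resident macrophages of the artery settle in the adventitia, clear debris through scavenger receptors and persist for long periods, while foam macrophages sit in the lipid-rich intima and carry lipid-handling and lysosomal genes. Between them stand macrophages that derive more recently from blood monocytes, which enter the wall through the chemokine receptor Ccr2, and macrophages that present antigen on MHC class II or release inflammatory chemokines and interleukins. Class II molecules load peptides from the endosome and display them to helper T cells, and chemokines are small secreted proteins that draw leukocytes along a gradient.

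The promoters of 3 MHC class II genes and of Cxcl2 are shown because class II transcripts stood higher in the members than in resident-gated cells, and because Cxcl2 was the chemokine with the most transcripts in the members of both libraries. Each line gives the 120 bases that end 1 base before the transcription start, from RefSeq on GRCm38.p6, 5′ to 3′ on the strand of the gene, with the letters that were searched for in capitals. Of the 7 class II genes 4 had an entry, and 3 of these are printed. The letters GCAAC occur in the X box, TGACGTCA in the X2 box and ATTGG in the Y box of class II promoters, which act together with the coactivator Ciita, and GGG, any 2 bases and TTTCC make up a form of the NF-kB motif. All were searched on both strands.
H2-Aa, chr17:34287824-34287943, minus strand: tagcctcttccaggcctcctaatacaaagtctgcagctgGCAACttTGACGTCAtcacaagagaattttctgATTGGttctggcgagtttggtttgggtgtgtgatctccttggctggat
H2-Eb1, chr17:34305747-34305866, plus strand: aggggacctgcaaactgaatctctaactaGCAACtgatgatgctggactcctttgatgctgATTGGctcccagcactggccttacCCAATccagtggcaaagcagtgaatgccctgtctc
H2-DMb1, chr17:34153071-34153190, plus strand: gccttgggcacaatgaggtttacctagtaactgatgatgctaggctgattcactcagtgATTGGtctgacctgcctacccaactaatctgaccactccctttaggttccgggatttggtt
Cxcl2, chr5:90903779-90903898, plus strand: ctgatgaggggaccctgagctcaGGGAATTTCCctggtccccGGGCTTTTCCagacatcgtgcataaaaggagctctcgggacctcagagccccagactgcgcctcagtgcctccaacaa
In H2-Aa the letters ATTGG began 33 bases after GCAAC began, and in H2-Eb1 32 bases after. Of 32851 stretches of this length, 21.3% held ATTGG, 16.1% held GCAAC and 1.24% held TGACGTCA on either strand. Pairs were counted on the printed strand only. GCAAC was followed by ATTGG at any distance in 175 stretches (0.533%) and 30 to 35 bases on, a span that holds both distances above, in 24 (0.0731%). The H2-Eb1 stretch held a second ATTGG on the other strand, printed as CCAAT. The Cxcl2 stretch held the NF-kB letters 2 times, and 7 of all stretches (0.0213%) did, against 0.737% that held them at all. The Cxcl2 stretch ends at 90903898 by the RefSeq start, which lies past the GENCODE start of the gene at 90903871 given below. A match describes the letters of the window and is not a measurement of binding.

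The members were leukocytes with macrophage transcripts. Ptprc, which encodes the leukocyte antigen CD45, was detected in 80.4% of ND and 84.4% of HFD members, and a list of 16 core macrophage genes held 1.66% and 1.61% of their UMIs. Levels are given in CPM, the summed UMIs of a gene for each 1e6 UMIs of the same cells. Of the 5 genes proposed as markers of these cells, Ccr2 was at 371 CPM in ND and 744 in HFD. The resident-gated cells had 107 and 268 CPM of Ccr2, and the HFD foam-gated cells had 45.1. Ccl4, a chemokine for monocytes and T cells, was at 1625 and 754 CPM in members against 579 and 396 in resident-gated cells, and Cxcl2, which draws neutrophils, was at 5359 and 4706 against 3289 and 3506. The 44 ND foam-gated cells had 248 CPM of Ccr2, 1029 of Ccl4 and 7227 of Cxcl2, so in ND the last was above the members. Ccl12 and Adgre1 were not higher in members than in resident-gated cells. Ccl12, a Ccr2 ligand, was at 323 and 70.3 CPM in members, 332 and 253 in resident-gated cells and 64.3 and 15.7 in foam-gated cells. Adgre1, which encodes the macrophage antigen F4/80, was at 519 and 323 in members against 551 and 449 in resident-gated and 441 and 188 in foam-gated cells. Of the proposed markers Ccr2, Ccl4 and Cxcl2 were thus higher in members than in resident-gated cells of both libraries, and Ccl12 and Adgre1 were not. In GRCm38 coordinates Ccr2 lies at chr9:124101950-124113557, Ccl4 at chr11:83662584-83664683, Ccl12 at chr11:82101845-82103400, Cxcl2 at chr5:90903871-90905938 and Adgre1 at chr17:57358691-57483527.

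**Figure D1:**
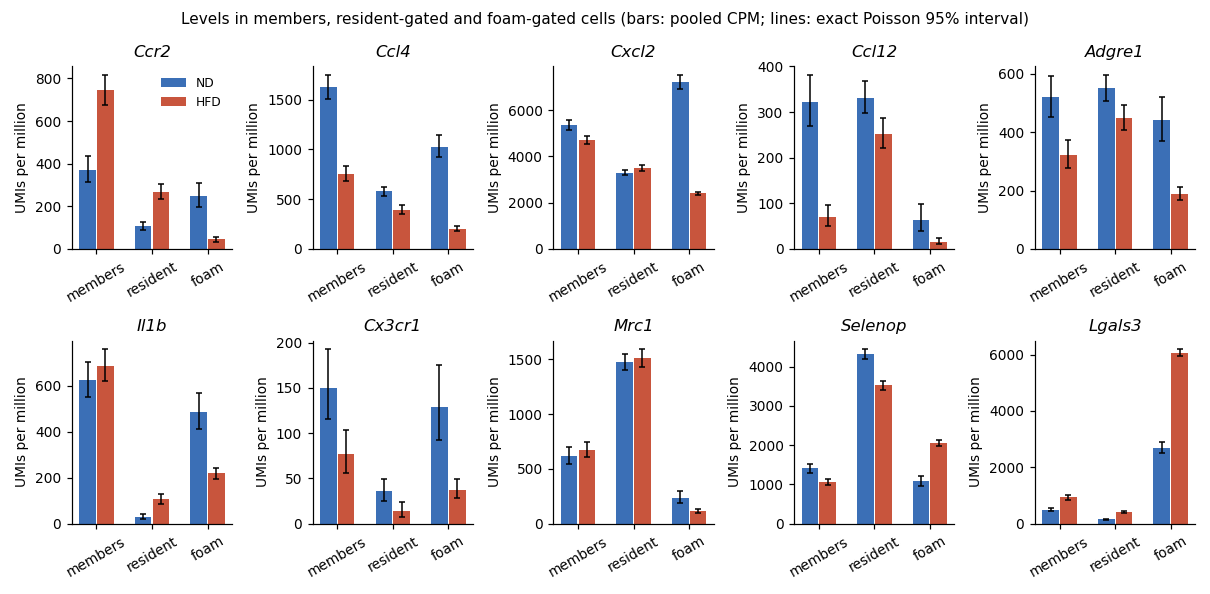
Bars give the summed level in CPM (linear axis from 0, its own scale for each gene) of 10 genes in members, resident-gated and foam-gated cells of the ND (blue) and HFD (red) libraries, with exact Poisson 95% intervals, which cover counting error only. Ccr2 was higher in members (371 and 744 CPM) than in resident-gated cells (107 and 268 CPM), while Adgre1 was at 519 and 323 CPM against 551 and 449.

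The libraries held 412380 UMIs from ND members and 568879 from HFD members. A member had a median of 3856 UMIs in ND (range 696 to 10559) and 4971 in HFD (1335 to 10646), and the median mitochondrial share was 19.3% and 25.6%, against 16.5% and 23.0% in resident-gated cells and 15.8% in HFD foam-gated cells. No barcode was a member in both libraries, and 1 kept barcode occurred in both. Transcripts of other cell types were present at low levels, as 303 and 353 CPM of 8 endothelial genes, 754 and 1129 CPM of 8 fibroblast genes, 541 and 134 CPM of 6 B cell genes, 48.5 and 5.27 CPM of 6 T cell genes and 65.5 and 66.8 CPM of 8 dendritic cell genes in ND and HFD members. The neutrophil genes were at 143 and 58.0 CPM, the natural killer cell genes at 48.5 and 7.03 CPM, and smooth muscle, adipocyte and mast cell genes were at 17.6 CPM or less. The dendritic cell genes Flt3 and Zbtb46 had 1 and 0 UMIs in ND members and 1 and 2 in HFD members. Haemoglobin and Alas2 made up 11019 and 2394 CPM, and the 3 club cell genes were at 313 CPM in ND with 0 UMIs in HFD. In resident-gated cells the club cell genes were at 3939 CPM in ND and had 1 UMI in HFD. The paper lists Clara (club) cells among its cell types. Whether some ND members came from tissue outside the arch, and the part of this in the diet differences, was not tested. Apoe was at 19.4 and 35.2 CPM, and since no source used here places the counted 3′ tags relative to the deletion, this level checks nothing.

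MHC class II transcripts were abundant in the members. The 7 class II genes held 4.93% of all UMIs in ND members and 4.44% in HFD members, against 2.57% and 2.58% in resident-gated cells, 4.14% in the 44 ND foam-gated cells and 1.70% in HFD foam-gated cells. The share in a single member ran from 0% to 9.78% with a median of 5.06% in ND, and from 0.108% to 7.90% with a median of 4.57% in HFD. The medians of resident-gated cells were 2.41% and 2.67%, and those of foam-gated cells were 5.16% in ND and 1.56% in HFD. Members thus had a higher median than resident-gated cells of both libraries and than foam-gated cells of HFD, while the ND foam-gated median was slightly above theirs, and all ranges overlapped.

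H2-Ab1, a beta chain of the class II molecule at chr17:34257689-34269419, was at 7437 CPM (95% interval 7176 to 7705) in ND and 7251 CPM (7031 to 7476) in HFD members. Resident-gated cells had 3780 and 4218 CPM of it and foam-gated cells 5571 and 2613 CPM. H2-Aa stood at 9540 and 8438 CPM, H2-Eb1 at 9428 and 8849 CPM, and Cd74, the invariant chain that guards the peptide groove, at 21667 and 18587 CPM. The peptide exchange genes H2-DMa and H2-DMb1 were at 616 and 601 CPM and at 509 and 559 CPM. Ciita, the coactivator of the class II promoters, had 28 and 45 UMIs (67.9 and 79.1 CPM) against 31.2 and 23.9 CPM in resident-gated cells. Over HFD foam-gated cells all 6 class II genes with enough UMIs passed 2-fold, where 6.5% of 2369 genes did. The groups were cut on UMIs of the same cells, so this count is a description. Over resident-gated cells in both libraries 1 of 6, H2-DMb1, passed 2-fold (1.61% of 1677 genes did so), and the median log2 ratios of the 6 were 0.97 in ND and 0.82 in HFD against −0.12 and −0.05 over all genes compared. MHC class I was not higher in the same way, with 0 of 4 genes past 2-fold over either group, and B2m at 2835 and 2180 CPM in members against 2920 and 2731 in resident-gated cells.

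**Figure D2:**
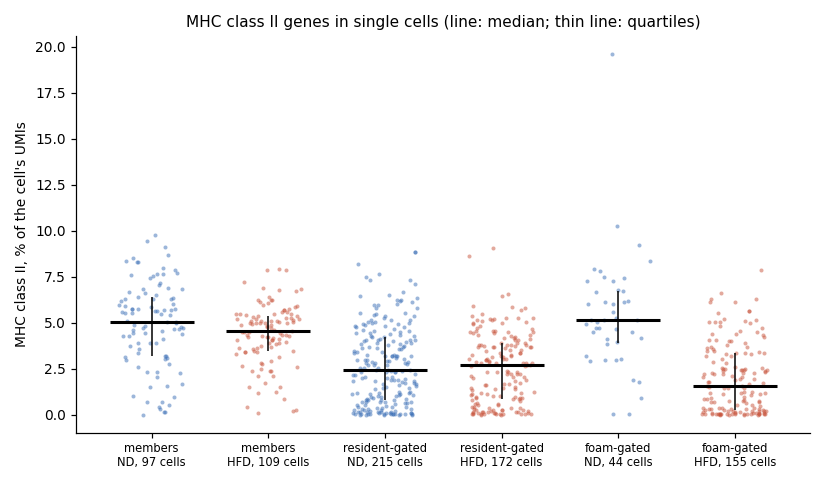
Share of each cell's UMIs (percent) that came from the 7 MHC class II genes, 1 point per cell, for members, resident-gated and foam-gated cells of the ND and HFD libraries, with the median (thick line) and quartiles (thin line) of each group. The medians of members were 5.06% and 4.57%, those of resident-gated cells 2.41% and 2.67%, and those of foam-gated cells 5.16% and 1.56%, with ranges that overlap.

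Inflammatory cytokines came next. Il1b, which encodes the pyrogenic interleukin 1 beta (chr2:129364570-129371139, minus strand), was at 623 CPM (95% interval 549 to 704) in ND members and 687 CPM (621 to 759) in HFD members. It was at 29.3 and 107 CPM in resident-gated cells and at 486 and 219 CPM in foam-gated cells, and its log2 ratios over resident-gated cells, 4.41 (3.87 to 5.00) and 2.68 (2.36 to 3.01), ranked first among the genes compared in both libraries when each gene was taken at the smaller of its 2 ratios. A UMI of Il1b was found in 34.0% of ND and 45.0% of HFD members, in 50% and 32.3% of foam-gated cells, and in 3.64% and 3.13% of T cells of the same libraries, whose median depths were 2758 and 5404.5 UMIs. Il1rn, the natural inhibitor of the receptor, was at 80.0 and 125 CPM against 38.7 and 40.1. Tnf was at 470 and 239 CPM against 235 and 195. Igf1, a growth factor of resident macrophages, was lower, at 89.7 and 125 CPM against 320 and 363. Of the 5 cytokine genes compared in both libraries, Il1b was past 2-fold higher and Igf1 past 2-fold lower.

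Among the CC chemokines the members had more Ccl4 and Ccl5 and less Ccl8, Ccl7 and Ccl24 than resident-gated cells. Ccl5 was at 136 and 141 CPM against 15.1 and 3.25, but its HFD level rested on few cells. Of its HFD UMIs, 59 lay in the Ccl5-led cluster described below, where 14.3% of 14 cells held any. A further 20 lay in the Ccl4-led cluster, where 12.9% of 31 cells did. In ND the Ccl5-led cluster held 51, in 32% of 25 cells. Ccl8 was at 272 and 635 CPM against 2055 and 5577, Ccl7 at 318 and 253 against 712 and 890, and Ccl24, a chemokine for eosinophils, had 14 and 6 UMIs against 373 and 99. Ccl5 had too few UMIs to be among the genes compared. Of the 9 CC chemokines that were compared, 0 were past 2-fold higher and these 3 were past 2-fold lower in both libraries (4.77% of 1677 genes were past 2-fold lower). Over HFD foam-gated cells the same list pointed the other way, with 6 of 8 past 2-fold higher, where 6.5% of 2369 genes were. Among the 6 were Ccl2 at 392 CPM against 120 and Ccl9 at 1232 CPM against 404. Cxcl13, which draws B cells, had 0 UMIs in the members of either library, while resident-gated cells had 483 UMIs (456 CPM) in ND and 21 UMIs (22.8 CPM) in HFD. Set against a floor of 3 UMIs, its ND level in members was at least 62.7-fold lower. Cxcl10, an interferon-induced chemokine, was at 318 and 183 CPM against 325 and 158, and Cxcl16, a membrane-bound scavenger of oxidized lipid, was at 274 and 181 against 148 and 104.

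Of the chemokine receptors, Ccr2 and Ccrl2 were past 2-fold higher than in resident-gated cells in both libraries. They were 2 of 4 genes compared, where 1.61% of 1677 genes were past 2-fold higher. Ccrl2, which binds chemerin, was at 252 and 251 CPM, with log2 ratios of 1.62 and 1.48. Cx3cr1, the fractalkine receptor of patrolling monocytes and of some tissue macrophages, was at 150 and 77.3 CPM against 35.9 and 14.1, on 62 and 44 UMIs. Ccr7, the receptor of migrating dendritic cells, had 11 and 6 UMIs.

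Monocyte genes were high in part. Beside Ccr2, S100a4 was at 386 and 730 CPM against 245 and 228 in resident-gated cells, and Lyz1 was at 272 and 413 CPM against 43.5 and 105. Plac8 was at 82.4 and 98.4 CPM against 23.6 and 129. Ly6c2, which defines the classical inflammatory monocyte, had 2 UMIs in ND members and 23 in HFD members (40.4 CPM), and was found in 2.06% and 10.1% of them. In T cells of the same libraries it was found in 21.2% and 17.2%, so the shares in members were below those of a cell type that carries the gene. Fn1, which encodes fibronectin, was at 315 and 856 CPM, against 332 and 163 in resident-gated and 746 and 102 in foam-gated cells.

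Other genes that led the members over resident-gated cells in both libraries were Rgs1 (892 and 570 CPM against 112 and 107), a brake on G protein signalling from chemokine receptors, and Cd52 (1086 and 1262 against 244 and 335), a glycosylated antigen of mature leukocytes. Dusp2 was at 276 and 179 CPM against 41.6 and 34.7, Cytip at 291 and 216 against 36.8 and 62.9, and Lsp1, a leukocyte actin-binding protein, at 337 and 434 against 111 and 123. Bcl2a1b, of a family that protects against apoptosis, was at 412 and 250 CPM against 100 and 85.6, and Cd300c2 at 252 and 309 against 59.5 and 106. Bcl2a1b has near-identical copies, and the division of reads among them is uncertain. Lpl, which releases fatty acids from lipoproteins, was at 473 and 613 CPM against 146 and 184 and lay below the 1717 CPM of HFD foam-gated cells.

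Resident genes that the rule did not use were low together. Of 13 compared, 12 were past 2-fold lower than in resident-gated cells in both libraries, where 4.77% of 1677 genes were. Their median log2 ratios were −1.98 and −1.84, against −0.12 and −0.05 over all genes compared. The resident-gated cells were chosen for high UMIs of other resident genes, so this count is a description. Mrc1, the mannose receptor, was at 618 and 673 CPM against 1477 and 1510. Selenop, a selenium carrier, was at 1406 and 1060 CPM against 4317 and 3523, and F13a1, a transglutaminase of the coagulation cascade, at 405 and 429 against 1603 and 1531. Timd4, a receptor for phosphatidylserine on dying cells, had 3 UMIs in each library against 229 and 90. Cd209g had 1 UMI in each against 259 and 190, with log2 ratios of −6.66 (−11.97 to −4.17) and −6.87 (−12.18 to −4.38). Mgl2 was the exception, at 519 and 483 CPM against 626 and 756. Retnla was at 2170 and 1622 CPM in members against 3527 and 2797. Further down the same order were Ltc4s, which makes leukotriene C4 (43.6 and 26.4 CPM against 415 and 301), Mmp9 (31.5 and 8.79 against 288 and 109) and Ednrb (31.5 and 49.2 against 334 and 405).

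Against the HFD foam-gated cells the same resident list pointed up, with 6 of 10 genes past 2-fold higher (6.5% of 2369 genes were) and 1 past 2-fold lower. F13a1 was at 429 CPM against 30.8. Lyz1 led the higher genes with 413 CPM against 4.10, followed by Retnla with 1622 against 26.7, Clec4b1 with 167 against 7.52 and Mgl2 with 483 against 23.2. Among the lower genes, 13.2% of 2369 genes were past 2-fold. Cd5l, a macrophage survival protein, had 2 UMIs in members against 2123, Spp1, which encodes osteopontin, was at 52.7 CPM against 4371, and Fabp5, a fatty acid carrier, at 121 against 6643. All 15 foam genes outside the rule were lower and 13 were past 2-fold, with a median log2 ratio of −2.61, against −0.12 over all genes. The foam-gated cells were chosen for high UMIs of other foam genes, so this count too is a description. Lgals3 was at 928 CPM against 6063 and Ctsd, a lysosomal protease, at 930 against 6782. Fabp4 and Cd36 were the 2 that were not, at 897 CPM against 1025 and at 232 CPM against 413.

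Lysosomal and cholesterol export genes were likewise below the foam level. Of 15 lysosomal genes 9 were past 2-fold lower than in HFD foam-gated cells, where 13.2% of 2369 genes were. The 1 past 2-fold higher was Ctsc (939 CPM against 356). Ctsb was at 2037 CPM against 9560 and Psap, which activates sphingolipid breakdown, at 3057 against 11656. Of 10 genes of cholesterol export and of the sterol sensor LXR, 7 were past 2-fold lower than in foam-gated cells, against the same 13.2%. Abca1, which loads cholesterol onto apolipoprotein A-I, was at 235 and 322 CPM, against 506 and 655 in resident-gated and 814 in HFD foam-gated cells, so it was lower in members than in either. None of the 15 genes of sterol synthesis and uptake reached 100 UMIs in any comparison. Among scavenger and efferocytosis receptors, Axl was past 2-fold higher than in resident-gated cells (242 and 197 CPM against 111 and 71.6), while Msr1, Stab1 and Mrc1 were past 2-fold lower in both libraries, Msr1 at 80.0 and 40.4 CPM against 164 and 106.

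Genes of immediate early response and of NF-kB were close to the resident level. Of 16 immediate early genes and 9 NF-kB genes compared in both libraries, 0 were past 2-fold either way, with median log2 ratios of −0.14 and −0.24 and of 0.27 and 0.16. Fos was at 2076 and 1851 CPM in members against 2368 and 2037 in resident-gated cells. Such genes can be induced by the warm enzyme digestion itself, and that part was not tested. Against HFD foam-gated cells 7 of 16 immediate early genes were past 2-fold higher, where 6.5% of 2369 genes were. Egr1 led them at 1071 CPM against 232. These groups were cut on UMIs of the same cells, so the count describes them only. Nlrp3, the sensor of the inflammasome that activates interleukin 1 beta, was at 255 and 230 CPM against 103 and 101 in resident-gated and 71.1 in foam-gated cells. Fcgr4, a receptor for IgG, was at 143 and 172 CPM against 25.5 and 79.1 in resident-gated cells, on 27 ND UMIs of the latter. Maf, a transcription factor of resident macrophages, was the 1 of 10 transcription factors past 2-fold lower (390 and 330 CPM against 1160 and 915), while Spi1 was at 260 and 283 CPM against 219 and 285. Interferon-induced genes gave 0 of 7 past 2-fold either way.

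The comparison of the diets did not enter the rule. With 1139 genes at 100 UMIs or more in the members of both libraries together, 16 were at least 2-fold higher in HFD (1.4%) and 35 at least 2-fold lower (3.07%). The median log2 ratio of these genes was −0.06, and scaling by the median of ratios moved it to 0.06 and the split to 23 higher and 25 lower. All intervals of ratios below are exact conditional binomial 95% intervals that cover counting error only and say nothing of the spread between mice.

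Ccr2 was higher in HFD members. Its 153 UMIs in ND (371 CPM, 95% interval 315 to 435) and 423 in HFD (744 CPM, 674 to 818) gave a log2 ratio of 1.0 (0.73 to 1.28), which lay between 0.69 and 1.13 under the alternatives and past 2-fold in 11 of 19. A UMI was found in 40.2% of ND and 78.9% of HFD members, and after thinning each cell to 1000 UMIs (2 ND cells were shallower and left out) in 21.1% and 45.9%. T cells, some of which express Ccr2, held a UMI in 21.8% and 18.8% as counted, and in 9.70% and 6.25% after the same thinning. In resident-gated cells it went from 107 to 268 CPM, and in foam-gated cells from 248 to 45.1 CPM. Of 5 monocyte genes compared, 3 were past 2-fold higher in HFD members (1.4% of 1139 genes were), namely Ccr2, Fn1 and Clec4e. Clec4e, a receptor for cord factor and for dying cells, gave the largest rise, from 29.1 to 190 CPM with a log2 ratio of 2.71 (1.84 to 3.70), on 12 and 108 UMIs. It was found in 8.25% and 30.3% of members and in 1.82% and 1.56% of T cells. After thinning, the shares were 2.11% and 9.17% of members and 0.606% and 0% of T cells. Ly6a, also known as Sca-1, was at 87.3 and 250 CPM (log2 ratio 1.52, 0.98 to 2.09), Gda, a guanine deaminase, at 189 and 540 CPM (1.51, 1.15 to 1.89), and Fn1 at 315 and 856 CPM (1.44, 1.16 to 1.73). The Fn1 rise was on cells that were few, 15 in ND and 37 in HFD, and 1 ND cell held 34.6% of its ND UMIs. A UMI of Fn1 was found in 15.5% and 33.9% of members and in 10.0% and 18.8% of T cells, and with R and F counted after thinning the log2 ratio was 0.15. Genes of fibroblasts, which also make fibronectin, were at 754 CPM in ND and 1129 CPM in HFD members, and their part in the Fn1 difference was not tested.

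Some genes of lipid storage were higher in HFD members as well. Plin2, which coats lipid droplets, was at 136 and 348 CPM (log2 ratio 1.36, 0.92 to 1.81). Fabp4 was at 424 and 897 CPM and Ctsd at 449 and 930 CPM. With Plin2 they were the 3 of 11 foam genes past 2-fold higher (1.4% of 1139 genes were), and the median log2 ratio of the list was 0.72. Lgals3 was at 500 and 928 CPM (0.89, 0.66 to 1.13) and Fabp5 rested on 14 and 69 UMIs. Ctsd was the 1 of 14 lysosomal genes past 2-fold, with a median log2 ratio of 0.19 for the list. With R and F counted after thinning, the log2 ratio of Ctsd fell from 1.05 to 0.36. Without the 12 cells of the cluster with endothelial transcripts described below, the log2 ratio of Fabp4 was 0.28. Tpi1, an enzyme of glycolysis, was at 58.2 and 144 CPM, the 1 of 5 glycolytic genes past 2-fold, and Gapdh was at 548 and 891 CPM. With R and F of 0 the log2 ratio of Tpi1 fell from 1.31 to 0.24. Thbs1, which encodes thrombospondin 1, was at 55.8 and 255 CPM (2.19, 1.55 to 2.89), and Etfb, an electron carrier of fatty acid oxidation, at 60.6 and 137 CPM.

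**Figure D3:**
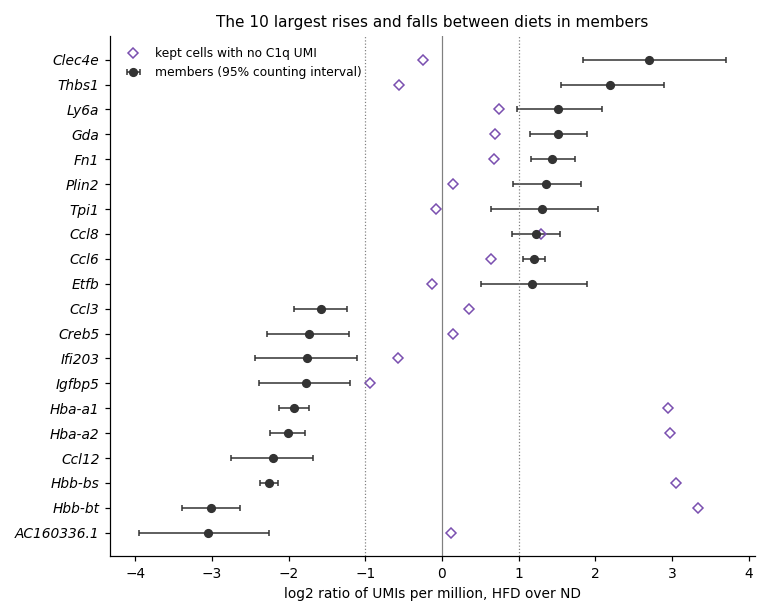
log2 ratio of HFD over ND in members for the 10 largest rises and 10 largest falls, with exact conditional binomial 95% intervals that cover counting error only; values above 0 are higher in HFD, dotted lines mark 2-fold, and open diamonds give the same ratio in kept cells with no C1q UMI where it was formed. Clec4e lies farthest up at 2.71 and AC160336.1 farthest down at −3.05, and the haemoglobin genes among the falls rest on a few cells.

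Chemokines moved both ways between the diets. Of 9 CC chemokines 2 were past 2-fold higher in HFD members and 3 past 2-fold lower, where 1.4% and 3.07% of 1139 genes were. Ccl6 was at 1302 and 2983 CPM (log2 ratio 1.20, 1.05 to 1.34). Ccl8 was at 272 and 635 CPM (1.22, 0.91 to 1.54), but it was found in 14 ND and 23 HFD members and 1 cell held 37.5% and 36.6% of its UMIs, and without members that held Pecam1 or Cdh5 its log2 ratio was 0.08, and under a mitochondrial limit of 20% it was −2.07. Ccl12 was lower in HFD, at 323 and 70.3 CPM (−2.20, −2.75 to −1.68). Ccl3 was at 553 and 185 CPM (−1.58, −1.93 to −1.24) and Ccl4 at 1625 and 754 CPM (−1.11, −1.29 to −0.93), and both encode macrophage inflammatory proteins. With R and F at 0 in every member, the Ccl4 log2 ratio was −0.22. Ccl2, the principal Ccr2 ligand, was at 737 and 392 CPM (−0.91, −1.17 to −0.66) and Cxcl2 at 5359 and 4706 CPM (−0.19, −0.27 to −0.11). Pf4, a heparin-binding chemokine, was at 1069 and 406 CPM (−1.40, −1.63 to −1.16), the 1 of 5 CXC chemokines past 2-fold. Il1b stood at 623 and 687 CPM, a log2 ratio of 0.14 (−0.09 to 0.37).

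NF-kB, immediate early and heat shock genes lay lower in HFD members. Of 9 NF-kB genes 3 were past 2-fold lower (3.07% of 1139 genes were) and the median log2 ratio was −0.79, against −0.06 over all genes. Icam1, an adhesion molecule, was at 332 and 146 CPM (−1.19, −1.60 to −0.78), Cd83, a marker of activated antigen-presenting cells, at 1009 and 457 CPM (−1.14, −1.37 to −0.92) and Rel, an NF-kB subunit, at 286 and 137 CPM (−1.06, −1.49 to −0.64), while Nfkbia was at 1067 and 1039 CPM. Of 16 immediate early genes 15 had a ratio below 0 and 2 were past 2-fold, Jun at 604 and 271 CPM and Jund at 941 and 436 CPM. All 8 heat shock genes had a ratio below 0 with a median of −0.71, and Dnaja1 was past 2-fold at 216 and 104 CPM. Genes of these lists respond to digestion at 37°C, the mitochondrial share of members was 19.3% in ND and 25.6% in HFD, and the part of either in the lower levels was not tested. The summed lists were lower in HFD in the other macrophage groups too. From ND to HFD the NF-kB list went from 3704 to 2877 CPM in resident-gated and from 4763 to 2723 CPM in foam-gated cells. The immediate early list went from 19556 to 15720 and from 13904 to 7120 CPM, and the heat shock list from 4451 to 3232 and from 4278 to 2857 CPM. Cells with no C1q UMI, 4741 in ND and 1866 in HFD, also had a lower Jun (log2 ratio −0.35), Jund (−0.46), Dnaja1 (−0.66) and Rel (−1.39).

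The largest falls held genes that rested on a few cells. Mucl1 had 118 UMIs in ND and 1 in HFD, and all 118 were in 1 cell. The haemoglobin genes Hbb-bs, Hbb-bt, Hba-a1 and Hba-a2 were lower in HFD members, with Hbb-bs at 6458 and 1357 CPM, but 1 cell held 73.5% of the ND and 76.0% of the HFD UMIs of Hbb-bs. Without members of more than 1% haemoglobin its log2 ratio was 2.34, and 26.8% of ND and 78.0% of HFD members held a UMI of it, as did 24.8% and 92.2% of T cells. Igfbp5 had 87 and 35 UMIs, of which 70.1% and 91.4% were in 1 cell of each library. Ighm, the IgM heavy chain, was at 259 and 91.4 CPM with 41.1% of the ND UMIs in 1 cell, beside a B cell list of 541 and 134 CPM, and its source was not tested. AC160336.1 was at 218 and 26.4 CPM, with 47.8% of the ND UMIs in 1 cell. Spread over more cells were Creb5, a transcription factor of the CREB family, at 252 and 75.6 CPM (−1.74, −2.29 to −1.21) in 42 and 31 cells, and Ifi203, an interferon-inducible gene with near copies in its family, at 172 and 51.0 CPM (−1.76, −2.43 to −1.11). Irf1, which drives interferon responses, was at 242 and 104 CPM, the 1 of 5 interferon-induced genes past 2-fold.

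MHC class II, class I, core macrophage, transcription factor, and complement and Fc receptor genes gave 0 past 2-fold between the diets, out of 6, 4, 15, 10 and 12 compared. The class II median log2 ratio was −0.06, with Cd74 at −0.22 (−0.26 to −0.18) and H2-Ab1 at −0.04 (−0.10 to 0.03). Cells with no C1q UMI served to show which diet differences also occurred outside macrophages. There Ccr2 had a log2 ratio of 0.56, Gda 0.69, Ly6a 0.75, Fn1 0.68, Ccl6 0.64, Ccl8 1.30, Fabp4 0.66 and Ctsd 0.22. Plin2 was at 0.15, while Clec4e was at −0.24, Thbs1 at −0.56, Tpi1 at −0.08 and Etfb at −0.13. Among genes lower in HFD members, Ccl4 was at 0.82, Ccl3 at 0.35 and Pf4 at 1.03, opposite to members. These cells came from the same 2 libraries, so they are no independent sample.

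How the members varied with the rule is given once, without a test. Members with no UMI of either gene group numbered 34 in ND and 41 in HFD. Their Ccr2 was at 440 and 806 CPM, Il1b at 785 and 1113 CPM and Mrc1 at 406 and 566 CPM. Cells just outside, with 3 or 4 resident UMIs, numbered 27 and 19 and had 189 and 739 CPM of Ccr2, 36.1 and 313 CPM of Il1b, and 1019 and 1018 CPM of Mrc1. Those with 3 or 4 foam UMIs numbered 15 and 12 and had 404 and 327 CPM of Ccr2 and 1231 and 3991 CPM of Lgals3, where members had 500 and 928. Members with 2 resident or 2 foam UMIs had 909 and 849 CPM of Mrc1, near the level just outside the resident limit, so the members are a range of C1q-gated cells set by the rule.

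Clustering of the 206 members gave 5 clusters, called here by the gene with the largest ratio over the other members. The genes that define a cluster were used to form it and are given as a description. The Retnla-led cluster held 65 cells (26 ND, 39 HFD) and was followed by Fn1, Lyz1, Ear2 and C3. The Ccl4-led cluster held 58 cells (27 and 31), with Hilpda, Opa3, Ccl12 and Clec4e next. The Ccl5-led cluster held 39 cells (25 and 14), with Dnase1l3, Mmp13, Itgax and Cadm1 next, and it made up 25.8% of ND (17.4 to 35.7) and 12.8% of HFD members (7.20 to 20.6). The Ccl8-led cluster held 32 cells (16 and 16) with Cbr2, Ltc4s, Stab1 and Cp, and 4 of its 10 leading genes were resident genes that the rule did not use. The Aqp1-led cluster held 12 cells (3 and 9) with Col4a2, Fabp4, Kdr and Cldn5, and 4 of its 10 leading genes were endothelial, so it is not called a macrophage group.

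Class II transcripts varied little among the clusters, while inflammatory and resident genes varied widely. The 7 class II genes held 4.62%, 4.79%, 4.82%, 4.46% and 3.83% of UMIs in the Retnla-, Ccl4-, Ccl5-, Ccl8- and Aqp1-led clusters. Il1b was at 350.5, 1107, 992, 86.8 and 593 CPM in that order. Mrc1 was at 612, 733, 174, 1276 and 842 CPM, and Selenop at 921, 1319, 591, 2994 and 880 CPM. Ccr2 was at 893 CPM in the Retnla-led cluster and between 269 and 518 CPM in the others. The cluster with the highest Ccr2 was therefore not the one with the highest Il1b.

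**Figure D4:**
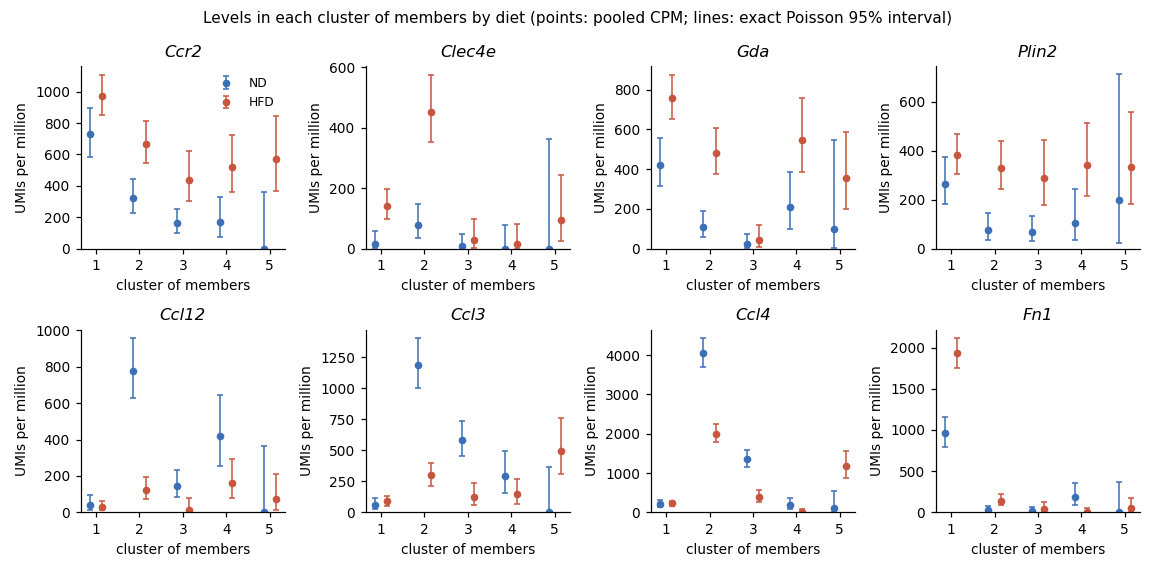
Points give the CPM of 8 genes within each cluster of members for the ND (blue) and HFD (red) libraries, with exact Poisson 95% intervals; clusters 1 to 5 are the Retnla-, Ccl4-, Ccl5-, Ccl8- and Aqp1-led ones. Ccr2 was higher in HFD in the 4 clusters with at least 14 cells per library, from 730 to 975 CPM in the Retnla-led cluster and from 325 to 670 CPM in the Ccl4-led cluster.

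Within the clusters the diets were compared side by side. The Aqp1-led cluster, with 3 ND cells, was left aside. Ccr2 went from 730 (585 to 899) to 975 CPM (854 to 1109) in the Retnla-led cluster and from 325 (230 to 446) to 670 CPM (544 to 815) in the Ccl4-led cluster. In the Ccl5-led cluster it went from 162 (97.8 to 254) to 440 CPM (301 to 622) and in the Ccl8-led cluster from 167 (72.2 to 330) to 519 CPM (362 to 722). It was thus higher in HFD in 4 of 4, with intervals that overlapped in 1, the Retnla-led one.

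Plin2 went from 265 to 381, from 77.0 to 331, from 68.4 to 289 and from 105 to 341 CPM in the same order. It too was higher in 4 of 4, with intervals that overlapped in the Retnla-led and Ccl8-led clusters. Clec4e was counted mostly in 2 clusters, from 16.6 to 142 CPM in the Retnla-led and from 77.0 to 453 CPM in the Ccl4-led cluster. Ccl12 was lower in HFD in 4 of 4, but its intervals overlapped in the Retnla-led cluster, on 5 and 7 UMIs, and in the Ccl8-led cluster. The Ccl4-led cluster held most of it, 91 of 133 ND UMIs, and there it went from 779 to 122 CPM. Ccl4 went from 4048 to 2002 CPM in the Ccl4-led and from 1368 to 385 CPM in the Ccl5-led cluster, while it was at 224 and 226 CPM in the Retnla-led cluster. Fn1 was held mostly by the Retnla-led cluster, where it went from 962 to 1930 CPM on 116 and 461 UMIs, with 9 and 0 UMIs in the Ccl8-led cluster. Clec4e and Fn1 thus had most of their UMIs in different members, and the clusters were formed from these same genes.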

How the data were processed

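Per the labels and the study's methods, the authors aligned and counted reads with Cell Ranger (3.0.1 in the header of the deposited counts) against mm10, and the deposited matrices held UMI counts for 31053 genes in 10234 ND and 14225 HFD barcodes. The filter of the methods left 5416 and 2739 cells, the numbers the study states. From these counts, members were selected and UMIs summed per gene over the cells of a library, given as CPM of all UMIs of those cells, with exact Poisson 95% intervals, exact Clopper-Pearson intervals for shares and exact conditional binomial intervals for ratios. They cover counting error only. Genes with at least 100 UMIs in both groups together were compared, and a gene was called past 2-fold. A level of 0 was set to 3 UMIs in ratios. Members were clustered with scanpy 1.11.5 and leidenalg 0.10.2 (1500 variable genes, 20 components, 15 neighbours, resolution 0.6), with leading genes from those in at least 25% of a cluster's cells. T cells were taken by Cd3 and Trbc2 transcripts. The scripts were tested on simulated data.

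The members and the gene lists were chosen with earlier results of these data known. Named are the genes of the rule, proposed markers, members of the lists with the most UMIs or past 2-fold, the 10 largest ratios either way in each comparison (for diets with at least 4 UMIs in each library, and apart from them genes with 3 or fewer UMIs in 1 library and 100 or more in the other) and the 5 leading genes of each cluster. A few further list members are named for their roles, after their values were seen. A deposited table that joins both libraries was not used. Doublets were not removed: Scrublet's own threshold marked 0 of 5416 and 1 of 2739 cells and so had not worked, and leaving out the 6% of cells with the highest scores was an alternative, as were other limits of the rule, scalings and filters. Gene positions are from GENCODE M21 and promoters from RefSeq, both on GRCm38. Results for a few genes are not reported here.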

Additional observations from a re-analysis of the deposited data

Results flagged for a closer look

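For 7 genes the HFD over ND ratio in members had the opposite sign to that in another macrophage group, at 2-fold or more in both. None of these differences was tested, since there was 1 library per diet. Fn1 had a log2 ratio of 1.44 in members, −1.03 in resident-gated and −2.87 in foam-gated cells. The summed level of the 8 fibroblast genes moved with the same signs. From ND to HFD it went from 754 to 1129 CPM in members, from 1632 to 424 in resident-gated and from 2081 to 332 in foam-gated cells. The part of fibroblast RNA in the Fn1 differences was not tested. Ccr2 was at 1.0 in members and −2.46 in foam-gated cells, and Gda at 1.51 and −1.50. The foam-gated values rest on 44 ND cells. The haemoglobin genes were lower in HFD members and higher in the other groups: Hbb-bt −3.01 against 5.32 in resident-gated and 8.19 in foam-gated cells, Hbb-bs −2.25 against 3.30 and 6.00, Hba-a1 −1.93 against 3.21 and 6.62, and Hba-a2 −2.01 against 3.19 and 7.29. The sign in members rested on a few cells: 1 cell held 73.5% of the ND UMIs of Hbb-bs, without members of more than 1% haemoglobin its log2 ratio was 2.34, and a UMI of it was found in 26.8% of ND and 78.0% of HFD members. The HFD sums of the other groups were also set mostly by few cells. Haemoglobin held 0.970% of the summed UMIs of HFD resident-gated cells, but 0.0507% in the median cell and 22.1% in the highest. In HFD foam-gated cells it held 0.713% of the sum, 0.0360% in the median cell and 52.9% in the highest. In cells with no C1q UMI the log2 ratio of Hbb-bs was 3.05.

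Barcodes that met every limit except the mitochondrial one numbered 100 in ND and 235 in HFD, beside 97 and 109 members. Their median mitochondrial share was 52.7% and 46.3%, class II genes held 3.74% and 3.69% of their UMIs, and their Ccr2 was at 45.5 and 267 CPM. They entered no comparison.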

How the results depend on the processing

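No paired analysis was possible because each diet had 1 library. The share of C1q-gated cells that were members, 26.6% in ND and 23.1% in HFD, moved beyond its interval to 20.9% and 17.8% with R and F of at most 1, to 33.0% in ND with at most 3, to 20.6% and 8.10% with a mitochondrial limit of 20% (53 and 17 members), and to 12.8% and 0% with 10% (6 and 0 members, so that no ratio could be formed). The ratios under the 20% limit therefore rest on few cells. Alternatives chosen after seeing the data were R and F of 0, leaving out members with over 1% haemoglobin, the Aqp1-led cluster or the cell with the most UMIs of a gene, and other clustering resolutions. With R and F of 0 the shares were 9.34% and 8.69%. The 16 genes higher and 35 lower in HFD became 123 and 179 with a minimum of 30 UMIs, and 7 and 8 with R and F of 0, and the lower count was 22 with R and F counted after thinning and 22 with Ptprc required. Over resident-gated cells the 27 higher and 80 lower genes became 77 and 168 with 30 UMIs, and the lower count 51 under the 20% limit. Over HFD foam-gated cells 154 and 313 became 468 and 658 with 30 UMIs. Scaling by the median of ratios gave 23 higher and 25 lower, and totals without mitochondrial, haemoglobin and ribosomal genes 20 and 31. Clustering gave 8 clusters in place of 5 at resolution 0.8 and 4 at 0.4.

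Of 684 values of 36 named genes under the alternatives, 668 kept their direction, but the genes called between the diets changed more. Of the higher calls, 7 of 14 were shared with the main analysis without cells with Pecam1 or Cdh5. The shared calls were 7 of 14 with R and F after thinning and 5 of 17 under the 20% mitochondrial limit. Of the lower calls 26 of 36, 14 of 22 and 14 of 38 were shared. Without cells under 2000 UMIs 14 of 15 higher and 33 of 35 lower calls were shared. Under the 20% mitochondrial limit Ccl8 turned to −2.07, Fabp4 to −1.19 and Ly6a to −0.24, and Cxcl2, which was not called, was at 0.25. Igfbp5 turned to 0.031 with C1q at 0.5% and to 0.0049 with Ptprc required. With R and F after thinning, with R and F of 0 and without haemoglobin-rich cells, Hba-a1 turned to 0.43, 2.24 and 2.04 and Hba-a2 to 0.47, 1.83 and 2.22. With the last 2 of these Hbb-bs turned to 2.01 and 2.34 and Hbb-bt to 2.67 and 1.83. The cause was not tested. Of 1001 values over the other groups 1 turned, S100a9 over foam-gated cells, at 2.83 under the 20% limit. Ccr2 ran from 0.69 to 1.13, Clec4e from 2.39 to 2.95, Plin2 from 1.17 to 1.89, Ccl12 from −3.06 to −1.87, and Fn1 from 0.15, with R and F after thinning, to 2.64.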
